A study of Mus musculus with 11 samples.

Results

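Cdx2, Tfap2c, Tfap2a, Eomes, Elf5, Esx1, Ascl2 and Hand1 encode transcription factors of the trophectoderm (TE), the outer layer of the blastocyst, and of the trophoblast that descends from it. These 8 genes were listed by name, without a rule on measured values but with earlier results of these data known. They are 8 of the 48952 genes of a bulk RNA-seq table and of the 32285 genes of a pair of single-cell RNA-seq matrices. All 8 were present in both kinds of file. Levels were compared between sorted populations and between culture conditions of mouse naive extra-embryonic endoderm (nEnd), a stem cell line that models the primitive endoderm (PrE), and co-detection of the members was counted cell by cell.

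The bulk libraries came from nEnd carrying an OCT4-mCherry protein reporter, grown without treatment in RACL medium (Activin A, CHIR99021 and LIF) over mouse embryonic fibroblast feeders. Live cells were stained for PDGFRA, an endoderm surface receptor, and sorted by PDGFRA and mCherry into Pdgfra+ (PDGFRA without OCT4-mCherry), DP (double-positive) and Oct4+ (mCherry without PDGFRA), with 3 libraries of each. The single-cell libraries came from Oct4LOF nEnd (cell line EPUc in the labels), homozygous for an Oct4 allele that 4-hydroxytamoxifen (4OHT) deletes. PDGFRA-positive Oct4LOF cells were sorted, cultured with 4OHT (+4OHT) or without treatment (−4OHT) and sequenced as 1 library per condition. Each kind of library rests on a single line, the Oct4 lesion and the 4OHT exposure of the +4OHT cells cannot be told apart, and nothing in the labels says whether the 3 bulk libraries of a group came from separate cultures, so that p-values measure only the spread between these libraries. Embryonic stem cells, 3D nEnd and cells moved to trophoblast stem cell medium, which the series' design also names, were not analysed here.

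In the mouse blastocyst the TE is set up when YAP1 and TEAD4 in the outer cells switch on Cdx2 and Gata3, while OCT4 and CDX2 repress each other across the boundary with the inner cell mass. CDX2, EOMES, ELF5 and the AP-2 factor TFAP2C then hold the trophoblast stem cell state, with SOX2 and ESRRB shared between trophoblast and epiblast. ASCL2, HAND1 and ESX1 act later, in the ectoplacental cone and spongiotrophoblast, in giant cells and in the labyrinth. Several of the factors also have duties outside trophoblast: EOMES in the definitive and primitive endoderm and in the primitive streak, CDX2 in the posterior epiblast, and TFAP2C in naive pluripotency and in primordial germ cells.

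Cdx2 lies on chromosome 5 (147300805 to 147307270, minus strand), Ascl2 on chromosome 7 (142966829 to 142969264, minus strand) and Esx1 on the X chromosome (137115397 to 137122083, minus strand) of GRCm38, and all 3 are protein coding. Eomes (chromosome 9, 118478212 to 118486132), Tfap2c (2, 172549593 to 172558622) and Elf5 (2, 103411688 to 103450989) are on the plus strand, and Tfap2a (13, 40715302 to 40738376) and Hand1 (11, 57828705 to 57832818) on the minus strand. The sequences upstream of the first 3 genes are shown because their transcripts fell in the same +4OHT cells. Of the 8 members 6 had an entry in the RefSeq promoter table (GRCm38.p6), Tfap2c and Hand1 had none, and only the 250 bases before the RefSeq transcript start are printed, on the strand of the gene. Capitals mark an AP-2 motif (GCCNNNGGC, the letters bound by factors such as TFAP2C and TFAP2A) or an octamer (ATGCAAAT, bound by POU factors such as OCT4), both searched on either strand.
Cdx2, chr5:147307250-147307499: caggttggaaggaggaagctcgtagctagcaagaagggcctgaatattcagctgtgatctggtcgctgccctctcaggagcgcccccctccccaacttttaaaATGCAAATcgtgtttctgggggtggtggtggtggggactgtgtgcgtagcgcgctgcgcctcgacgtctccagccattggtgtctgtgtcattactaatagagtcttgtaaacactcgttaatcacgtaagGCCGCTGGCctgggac
Ascl2, chr7:142969265-142969514: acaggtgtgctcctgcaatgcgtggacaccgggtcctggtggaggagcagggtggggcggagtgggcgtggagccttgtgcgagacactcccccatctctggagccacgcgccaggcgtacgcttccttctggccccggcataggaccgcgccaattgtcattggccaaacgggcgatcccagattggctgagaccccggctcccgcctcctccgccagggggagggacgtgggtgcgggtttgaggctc
Esx1, chrX:137120327-137120576: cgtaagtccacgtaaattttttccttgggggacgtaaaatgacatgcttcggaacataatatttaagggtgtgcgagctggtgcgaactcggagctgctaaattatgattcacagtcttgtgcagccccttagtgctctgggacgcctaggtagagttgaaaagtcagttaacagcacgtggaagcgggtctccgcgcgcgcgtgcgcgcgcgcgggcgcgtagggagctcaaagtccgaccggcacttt
The Cdx2 stretch held 1 octamer and 1 AP-2 motif, which did not overlap. An octamer occurred in 1.6% and an AP-2 motif in 13.73% of 32851 mouse promoter windows of the same length. The TEAD motif CATTCC, which 12.64% of the windows held, was found in none of the 3 stretches. Neither the octamer nor the AP-2 motif was found in the Ascl2 or Esx1 stretch. Both were rich in CpG, with 19 sites upstream of Ascl2 and 24 upstream of Esx1 against 13 at Cdx2 and a median of 6 over all windows. The Esx1 stretch ends at the start of 1 transcript and lies in an intron of another that starts farther upstream. These matches describe the letters of the windows and carry no evidence of binding.

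The bulk libraries held 8019631 to 11642571 reads each. Summed CPM (read counts scaled by TMM-adjusted library size) of 8 endoderm markers, among them Gata6 and Sox17, ran from 33060 to 44020 in Pdgfra+, from 22370 to 33200 in DP and from 161 to 398 in Oct4+, and those of 8 epiblast markers ran the other way (143 to 242, 676 to 1068 and 3631 to 5079). Markers of other cells moved with the sort as well: 8 feeder fibroblast genes summed to at most 15.3 CPM in Pdgfra+ and 7.08 in DP but to 18.5 to 160 in Oct4+. The highest sums of 7 genes of two-cell-like cells were 2.59, 20.7 and 970 CPM in Pdgfra+, DP and Oct4+. For 8 mesoderm genes they were 20.2, 251 and 272 CPM, of which Lefty2 alone gave 16.4, 241 and 265. The other DP libraries had Lefty2 at 8.85 and 19.3 CPM, so that the mesoderm sums rest mostly on this gene. The part of such other cells in the member levels was not tested, and in a sorted population fewer cells of a type and less RNA per cell cannot be told apart. In the single-cell data 5531 of 6896 −4OHT barcodes and 6629 of 7283 +4OHT barcodes were kept, with a median of 17762 and 12521 UMIs. A total of 21 barcode sequences occurred in both libraries. Pou5f1, the gene for OCT4, had a UMI in 44.9% of −4OHT cells and 3.20% of +4OHT cells, and its summed level was 0.0686 times that of −4OHT (95% interval 0.0603 to 0.0779). Where the deleted part lies relative to the 3′ tags is not given in the sources used here, so that this checks the label only in part.

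The 8 members together were scarce in nEnd. Their summed level was 19.0 to 22.7 CPM in the Pdgfra+ libraries, 40.4 to 50.4 in DP and 47.0 to 62.1 in Oct4+, and the sums of Pdgfra+ did not overlap those of the other populations. In CPM per kilobase of exon, the scale on which genes can be compared, Eomes led in DP (6.64) and Cdx2 in Pdgfra+ (2.65, just above Eomes at 2.54). In Oct4+ Tfap2c (4.77) and Eomes (4.71) were level, followed by Esx1 (3.34), Ascl2 (1.28) and Tfap2a (1.01). Elf5 was the scarcest member in Pdgfra+ (0.0483) and DP (0.0405) and had no read in Oct4+. A count filter on the 9 libraries kept 14185 genes and 6 of the 8 members. Elf5 and Hand1 did not pass it and are given by their counts. Where all genes were tested, both were past the threshold between Oct4+ and Pdgfra+ in edgeR (Hand1 2.85, adjusted p = 0.00539, and Elf5 −4.49, adjusted p = 0.0297), and DESeq2 called Hand1 there (3.06, adjusted p = 0.00765) but not Elf5 (adjusted p = 0.0996).

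**Figure D1:**
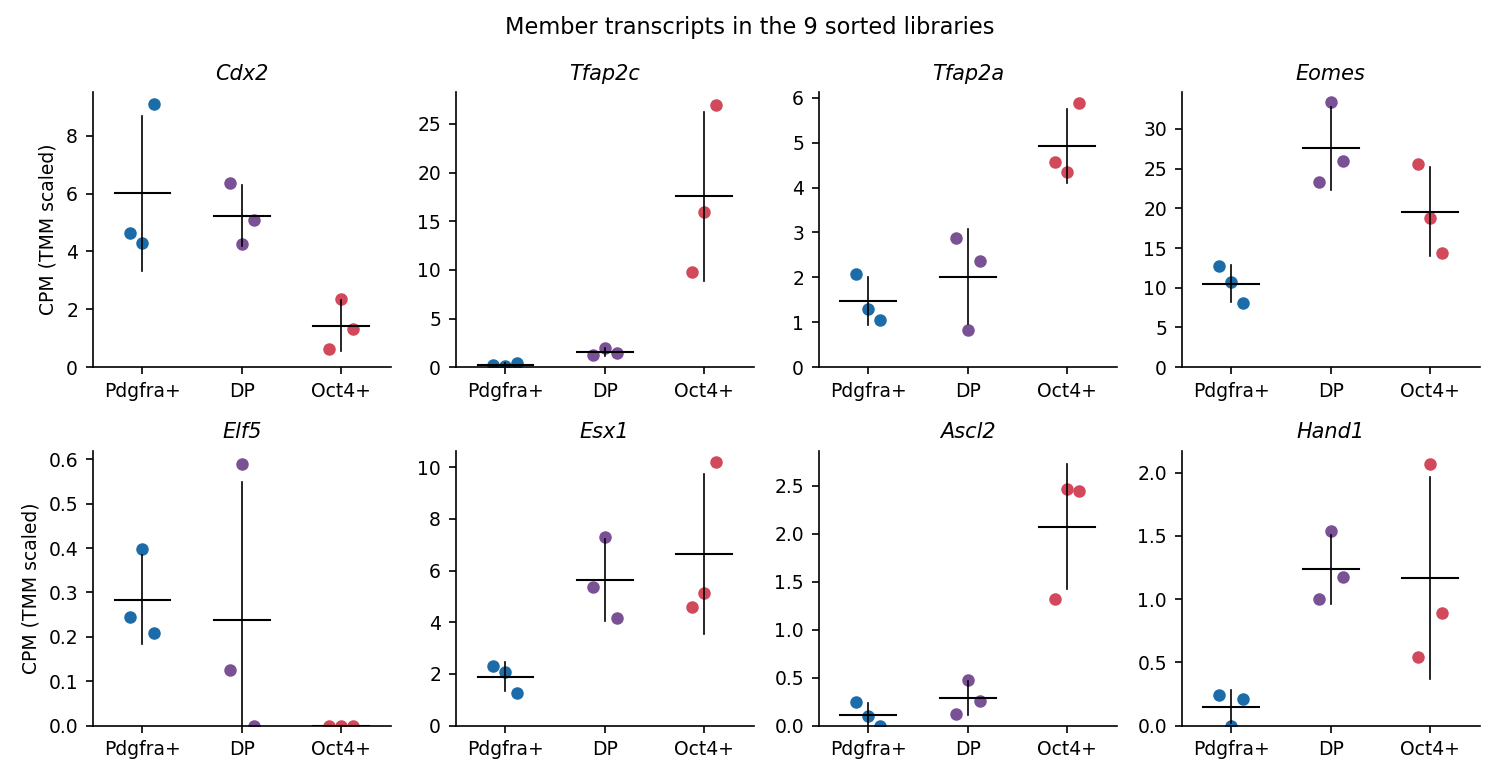
Levels of the 8 members in the 9 sorted libraries, in TMM-scaled CPM on a linear axis that starts at 0 in each panel. Points are libraries, horizontal bars the mean and vertical lines the SD (n = 3). Cdx2 was low in Oct4+ (mean 1.44 CPM), whereas Tfap2c, Tfap2a and Ascl2 were highest there, and the DP libraries of Eomes all lay above those of Pdgfra+.

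A member was called past the threshold at an edgeR adjusted p under 0.05 and an absolute log2 fold change over 1.5. Between DP and Pdgfra+, the endoderm with and without OCT4, 1 of the 6 members tested was past it, higher in DP, where 3.89% of all genes tested were (3.2% higher and 0.691% lower). A fit of these 6 libraries alone, with the replicate number that pairs them as a block, called Tfap2c and Esx1, both higher in DP. In that fit 713 of 12541 genes were past the threshold. Between DP and Oct4+, 1 member was higher and 2 were lower in DP, against 13.1% and 14.6% of all genes in these directions and 27.7% in either. Between Oct4+ and Pdgfra+, 4 members were higher and 1 was lower in Oct4+, against 17.3% and 14.7% of all genes and 32% in either direction. The median log2 fold changes of the 6 members were 1.35, −0.76 and 1.77 in these comparisons, against 0.02, −0.04 and 0.01 over all genes tested. The 3 comparisons share libraries, and since low genes entered the test through the group in which they were higher, the counts describe the tested members only. The libraries of the groups did not overlap for 3 of the 6 members tested between DP and Pdgfra+, for 4 between DP and Oct4+ and for 6 between Oct4+ and Pdgfra+, where 34.2%, 62.6% and 69.3% of all genes did not.

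Cdx2, the factor that specifies and maintains TE, was the 1 member tested that was past the threshold and lower in Oct4+. It had 4.64, 4.28 and 9.08 CPM in the Pdgfra+ libraries, 6.36, 4.25 and 5.10 in DP and 0.620, 2.37 and 1.33 in Oct4+. Every Oct4+ library lay below every library of the other populations, while Pdgfra+ and DP overlapped and did not pass the test (log2 fold change −0.20, SE 0.47, edgeR adjusted p = 0.823). Cdx2 was higher in DP than in Oct4+ by 1.87 on the log2 scale (SE 0.51, edgeR adjusted p = 0.0102) and lower in Oct4+ than in Pdgfra+ (log2 fold change −2.07, SE 0.51, edgeR adjusted p = 0.00501). These are small counts, 38 to 87 reads per Pdgfra+ library and 8 to 24 per Oct4+ library. Its paralogs Cdx1 and Cdx4, caudal factors of the posterior embryo, did the reverse: Cdx1 had a mean of 92.7 CPM in Oct4+ against 0.966 in DP and 0.0664 in Pdgfra+, and Cdx4 had 1.96 against 0.0436 and 0.0332, with both past the threshold for Oct4+ over Pdgfra+. The Oct4+ libraries of Cdx1 were far apart, at 119, 5.62 and 154 CPM.

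The AP-2 factors were higher in Oct4+. Tfap2c, required for TE formation and held also by naive pluripotent cells, was at 9.77, 16.0 and 26.9 CPM in Oct4+, at 1.25, 2.01 and 1.44 in DP and at 0.244, 0.0996 and 0.418 in Pdgfra+. The 3 populations did not overlap, and the spread was widest in Oct4+. Its log2 fold change was 6.04 for Oct4+ over Pdgfra+ (SE 0.57, edgeR adjusted p = 1.68e-05), −3.47 for DP over Oct4+ (SE 0.47, edgeR adjusted p = 0.000185) and 2.57 for DP over Pdgfra+ (SE 0.61, edgeR adjusted p = 0.0392). The last of these rests on 38 reads against 7 in all, and it lost the threshold when DP replicate 2 or 3, or any of the 3 Pdgfra+ replicates, was left out, with edgeR adjusted p from 0.0878 to 0.129. Tfap2a, its partner in early trophoblast and a neural crest factor, was at 4.57, 4.34 and 5.87 CPM in Oct4+, at 2.87, 0.826 and 2.35 in DP and at 2.08, 1.30 and 1.04 in Pdgfra+. Oct4+ stood above both endoderm populations, which overlapped (log2 fold change 0.46, SE 0.49, edgeR adjusted p = 0.592). Tfap2a was past the threshold for Oct4+ over Pdgfra+ (1.74, SE 0.47, edgeR adjusted p = 0.00864), and its −1.29 for DP over Oct4+ (SE 0.47, edgeR adjusted p = 0.0371) stayed under the fold limit, which it passed without DP replicate 1 (−1.60, edgeR adjusted p = 0.0367). The gene overlaps 3 antisense genes, and whether the counting used strand is not given in the sources used here, so that reads of either strand may be in its counts.

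Eomes, a T-box factor needed for TE to proliferate and for endoderm to form, was the most abundant member of DP. Its levels were 23.3, 33.4 and 26.0 CPM in DP, 25.6, 18.7 and 14.4 in Oct4+ and 12.7, 10.8 and 8.14 in Pdgfra+. The Pdgfra+ libraries lay below all others, and DP overlapped Oct4+. The log2 fold change for DP over Pdgfra+ was 1.39 (SE 0.27, edgeR adjusted p = 0.0217) and that for Oct4+ over Pdgfra+ was 0.90 (SE 0.27, edgeR adjusted p = 0.0138), so that both had a p under the limit and a fold under it. DP and Oct4+ differed by 0.49 (SE 0.26, edgeR adjusted p = 0.134). A single antisense gene overlaps Eomes. Elf5, the epigenetic gatekeeper of the trophoblast stem cell state, was close to absent: it had 2, 4 and 2 reads in the Pdgfra+ libraries, 1, 5 and 0 in DP and none in Oct4+. Its order was that of Cdx2, but 5 of its 6 DP reads came from replicate 2, and DP replicate 3 was at 0 like Oct4+.

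Of the factors of later trophoblast, Esx1, an X-linked homeobox gene of the labyrinth, had 4.57, 5.13 and 10.2 CPM in Oct4+, 5.36, 7.32 and 4.18 in DP and 2.32, 2.09 and 1.25 in Pdgfra+. Oct4+ and DP overlapped and both lay above Pdgfra+. Its log2 fold change was 1.80 for Oct4+ over Pdgfra+ (SE 0.43, edgeR adjusted p = 0.00427), which fell to 1.35 without Oct4+ replicate 3. For DP over Pdgfra+ it was 1.57 (SE 0.43, edgeR adjusted p = 0.057), over the fold limit and short of the p limit. In a fit of these 6 libraries alone it was 1.59 with an edgeR adjusted p of 0.0486, or 0.0224 with the replicate number as a block, whose numbers paired them, and the count of members past the threshold in this comparison became 2. Ascl2, a basic helix-loop-helix factor that the ectoplacental cone needs, was at 1.32, 2.46 and 2.44 CPM in Oct4+, at 0.125, 0.472 and 0.261 in DP and at 0.244, 0.0996 and 0 in Pdgfra+. Oct4+ again stood apart (log2 fold change −2.78 for DP over Oct4+, SE 0.65, edgeR adjusted p = 0.0045, and 4.08 for Oct4+ over Pdgfra+, SE 0.73, edgeR adjusted p = 0.000808). With 3 Ascl2 reads in all of Pdgfra+, the fitted value for Oct4+ over Pdgfra+ ran from 3.50 without Pdgfra+ replicate 3 to 5.03 without Pdgfra+ replicate 1. The ratio of summed counts was 18.5 for Oct4+ over Pdgfra+, with a 95% counting interval of 6.05 to 92.1, and 2.69 (0.614 to 16.1) for DP over Pdgfra+. Hand1, which drives giant cell formation and is known also from the heart, had 7, 21 and 8 reads in Oct4+, 8, 13 and 9 in DP and 2, 0 and 2 in Pdgfra+. Summed over libraries it was 8.64-fold (3.04 to 33.8) higher in DP and 7.81-fold (2.80 to 30.2) higher in Oct4+ than in Pdgfra+, on counting error alone.

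Around the members, the genes of the TE programme split by kind, and in no TE or trophoblast list did every gene tested pass the threshold in 1 direction. Of 7 inducers of TE, none was past the threshold between DP and Pdgfra+ (median log2 fold change 0.59, against 0.02 over all genes tested). Between Oct4+ and Pdgfra+ Gata3 (2.61) and Rbpj (2.41) were higher and Tead4 (−1.99) was lower in Oct4+. Gata3 rested on few reads, 6, 26 and 40 in the Oct4+ libraries against 1, 5 and 5 in Pdgfra+. Its libraries overlapped, at 0.465, 2.56 and 4.43 CPM against 0.122, 0.498 and 0.522. Of 8 partners of the trophoblast stem cell state, 3 were higher in DP than in Pdgfra+, namely Esrrb (3.78), Sox2 (3.40) and the FGF receptor Fgfr2 (1.64), with a list median of 1.10. Sox2 and Esrrb are also markers of the epiblast. In Oct4+ over Pdgfra+ the 3 that were higher were Sox2 (7.78), Esrrb (7.33) and Bmp4 (5.48).

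Of the 10 genes of TE epithelium tested, none was past the threshold between DP and Pdgfra+ (median −0.12), whereas 6 were lower and 2 higher in Oct4+ than in Pdgfra+ (median −2.48 against 0.01 over all genes). The simple keratins Krt19 (−5.65), Krt18 (−4.30) and Krt8 (−4.21) and the claudin Cldn6 (−5.02), which endoderm epithelium makes as well, were the lower ones of largest size, and the water channel Aqp3 (6.51) and Cldn4 (2.88) were the higher ones. Of 7 tested genes of later trophoblast, none was past the threshold between DP and Pdgfra+ (median 0.73), and 5 were lower and 1 was higher in Oct4+ than in Pdgfra+ (median −1.75), with Wnt7b (−4.10), Plac1 (−2.71) and Peg10 (−2.36) among the lower and the imprinted Phlda2 (4.60) the higher. Between DP and Oct4+ the epithelium list had 6 genes higher and 2 lower in DP and the later trophoblast list 4 higher and 1 lower. Tpbpa of the spongiotrophoblast, the placental hormones Prl3d1, Prl3b1 and Prl2c2 and the syncytin Synb had no read in any of the 9 libraries. Of 5 tested paralogs of the members, Tfap2e was higher in DP than in Pdgfra+ (2.11, edgeR adjusted p = 0.0495).

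Over the 9 libraries, which fall into the 3 sorted populations, the genes whose log2 CPM most resembled a member's among 10883 genes compared were Snapin for Cdx2 (Pearson r = 0.99), Slc29a1 for Eomes (r = 0.96), Gm4149 for Tfap2c (r = 0.993), Dnajc17 for Tfap2a (r = 0.99), Mrpl45 for Ascl2 (r = 0.99) and Ftl2-ps for Esx1 (r = 0.98). These values describe a shared order of the populations and were not tested.

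In the single-cell data the members were counted as cells with at least 1 UMI. There is 1 library per condition, so that no difference between conditions was tested, and exact 95% intervals on shares, levels and ratios cover counting error only. Cells were sorted into classes by markers that excluded the members: 26.1% of −4OHT cells were endoderm-like and 68.9% epiblast-like, whereas 96.2% of +4OHT cells were endoderm-like and none was epiblast-like. Of the 16 clusters, 2 met no class and stayed unnamed. Cluster 9, led by Mt2, Cidea and Cldn4, held 28 −4OHT and 157 +4OHT cells. Cluster 12, led by Cdkn1c, Cidea and H19, held 71 and 57 cells and carried markers of endoderm (89.6% mean detection) and epiblast (55.7%) together. Cluster 12 had a median of 27058 UMIs, and the doublet caller marked 63 of its 71 −4OHT cells. The same caller marked none of the 6629 +4OHT cells, so that it gave no information there.

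In −4OHT cells Eomes and Tfap2c were the members most often seen. Eomes had a UMI in 32.5% of cells (31.2 to 33.7), Tfap2c in 22.5% (21.5 to 23.7), Esx1 in 4.88%, Cdx2 in 4.36%, Ascl2 in 2.73%, Tfap2a in 2.13%, Hand1 in 0.886% and Elf5 in 0.181%. By class, Tfap2c was in 30.5% of epiblast-like and 2.97% of endoderm-like cells and Eomes in 38.5% and 19.8%. Ascl2 (3.23% and 0.415%), Cdx2 (5.17% and 2.49%) and Esx1 (5.46% and 3.32%) were also more often seen in epiblast-like cells, while Hand1 (1.08% and 0.346%) and Tfap2a (2.26% and 1.80%) had intervals that overlapped. As levels, Cdx2 stood at 3.81 CPM in epiblast-like and 1.65 in endoderm-like −4OHT cells, an order opposite to that of the sorted Oct4+ and Pdgfra+ populations of the other line. This order did not hold for every epiblast-like cluster: Cdx2 was at 4.64 CPM in cluster 6 and 8.93 in cluster 7 but at 0.427 in cluster 5. The 21 fibroblast-like cells, the class that should lack most members, had Tfap2c in 14.3% and Cdx2 and Eomes in 4.76% each (1 cell each, 0.12% to 23.8%), at a median of 28901 UMIs for that cluster. They are too few to set a background for shares of a few percent, and their cluster had endoderm markers at 64.4% mean detection beside 66.3% for feeder markers.

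**Figure D2:**
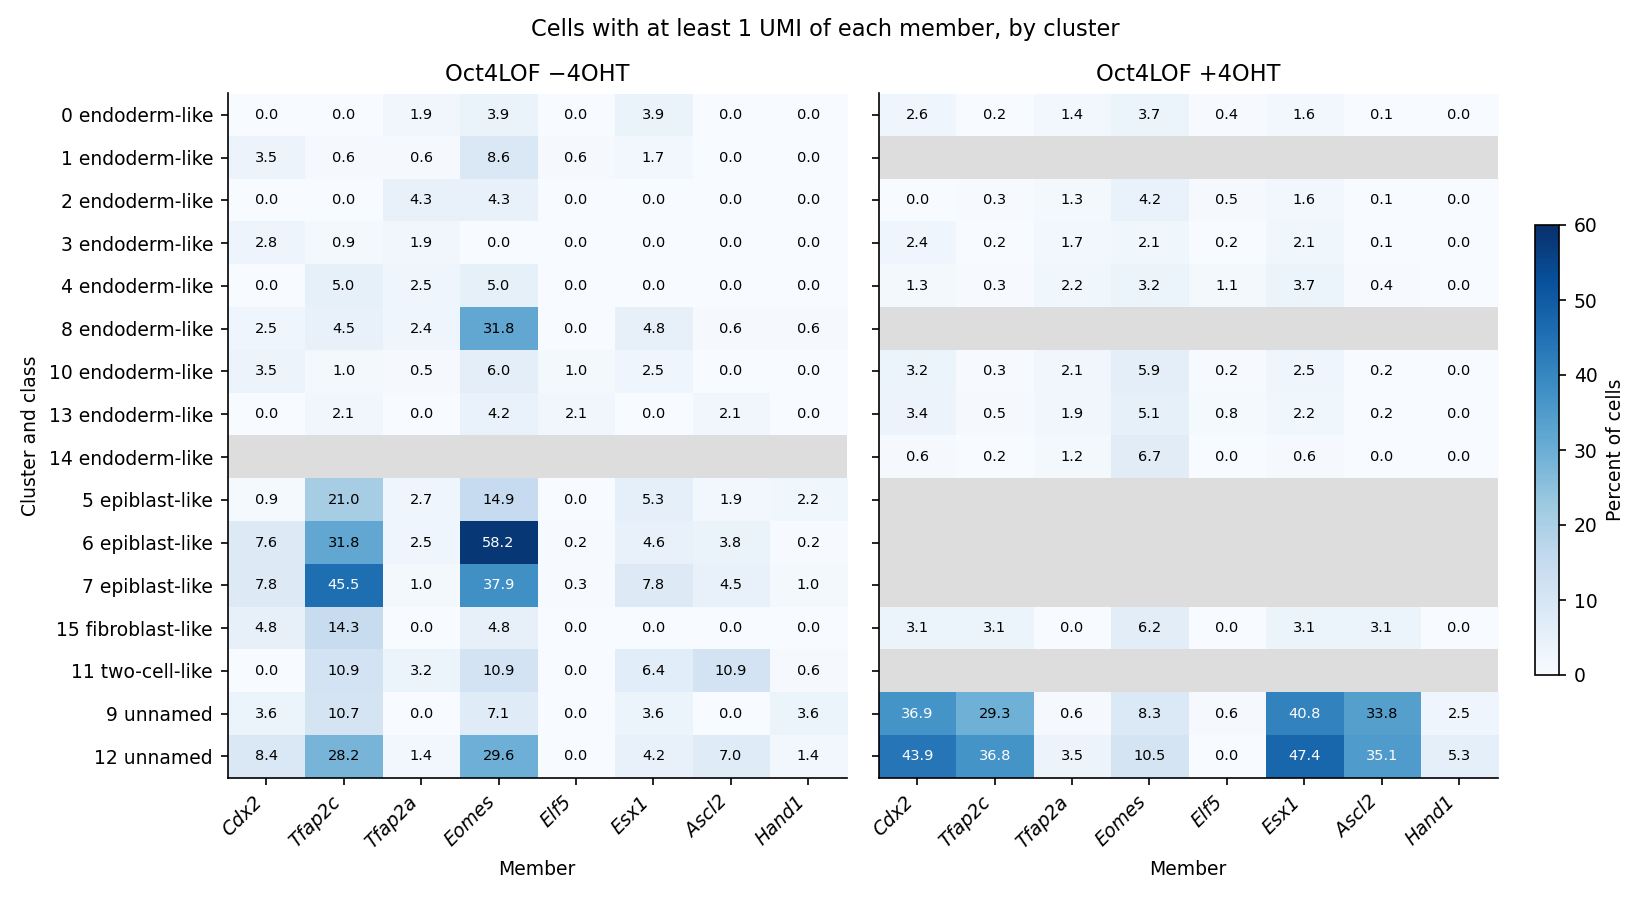
Percent of cells with at least 1 UMI of each member by cluster (rows, with class) in −4OHT (left) and +4OHT (right) cells, darker for higher shares and grey where a library had fewer than 20 cells of the cluster. In −4OHT the high shares are Eomes and Tfap2c in the epiblast-like clusters and in unnamed cluster 12 (29.6% and 28.2%), and Eomes in endoderm-like cluster 8. In +4OHT they are Cdx2, Tfap2c, Esx1 and Ascl2 in clusters 9 and 12.

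The epiblast-like clusters were not alike. Eomes was in 58.2% of cells of cluster 6, led by Mylpf and Cdx1, in 37.9% of cluster 7, led by Lefty1, and in 14.9% of cluster 5, led by Ankrd31. Tfap2c peaked in another of them, with 31.8%, 45.5% and 21.0% in clusters 6, 7 and 5, and Cdx2 followed with 7.56%, 7.82% and 0.865%. Hand1 did the reverse, at 0.236%, 0.960% and 2.16%. Among endoderm-like −4OHT cells, Eomes was in 31.8% of cluster 8, led by the endocytic receptor genes Amn and Cubn, and in 8.62% of cluster 1. Cluster 11, of two-cell-like cells, had Ascl2 in 10.9% of its 156 cells and Cdx2 in none, where a floor of 3 cells would be 1.92% of cells with a UMI (exact upper limit 2.34%). The median depths of clusters 5, 6 and 7 were 19207, 19371 and 16939 UMIs.

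In +4OHT cells every member was seen in fewer than 5% of cells. Shares were 4.50% for Eomes, 3.47% for Esx1, 3.41% for Cdx2, 1.76% for Tfap2a, 1.30% for Tfap2c, 1.27% for Ascl2, 0.453% for Elf5 and 0.106% for Hand1. The summed levels divided the members differently. Over all cells kept, the +4OHT library had 0.0991 times the −4OHT level of Eomes (0.0883 to 0.111), 0.0939 times that of Tfap2c (0.0805 to 0.109) and 0.179 times that of Hand1 (0.078 to 0.365), but 2.37 times that of Ascl2 (1.97 to 2.87), 2.17 times that of Esx1 (1.89 to 2.5) and 1.5 times that of Cdx2 (1.3 to 1.73). Tfap2a gave 1.15 (0.889 to 1.5). Elf5, with 12 and 32 UMIs, gave 2.98 (1.49 to 6.35). For Esx1, Cdx2 and Ascl2 the +4OHT library, which was shallower, had a lower share of cells with a UMI and a higher level. With each cell thinned to 8000 UMIs the −4OHT and +4OHT shares were 2.10% and 2.46% for Esx1, 1.93% and 2.19% for Cdx2 and 1.17% and 0.930% for Ascl2, with intervals that overlapped, and 18.8% and 2.69% for Eomes and 13.1% and 0.772% for Tfap2c.

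**Figure D3:**
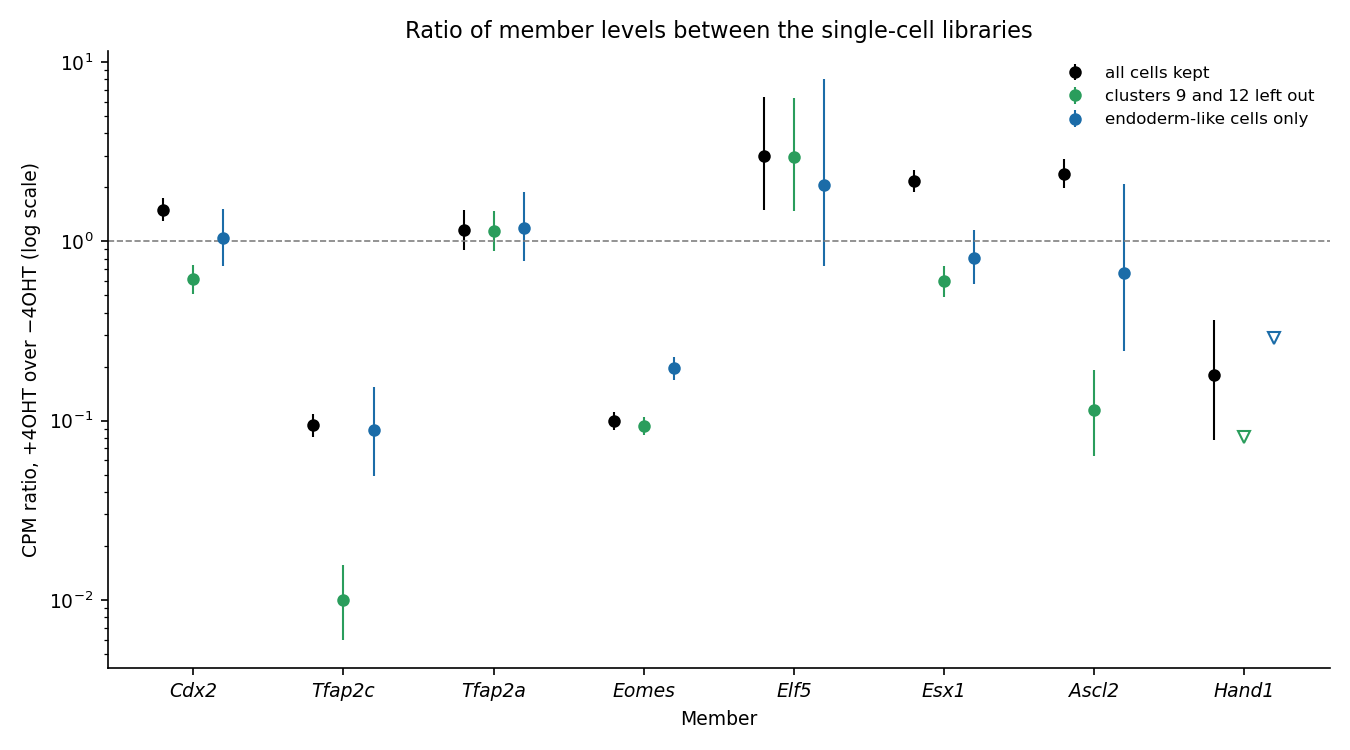
Ratio of each member's CPM in +4OHT over −4OHT cells on a log axis, over all cells kept (black), without clusters 9 and 12 (green) and in endoderm-like cells only (blue), with exact 95% counting intervals. Open triangles are upper limits where +4OHT had no UMI. Ascl2, Esx1 and Cdx2 stand above 1 over all cells (2.37, 2.17 and 1.5) and below it without the 2 clusters (0.114, 0.597 and 0.615).

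Those UMIs were concentrated in a few cells. Clusters 9 and 12 made up 3.23% of +4OHT cells and held 95.5% of the Ascl2 UMIs, 89.8% of the Tfap2c UMIs, 73.6% of the Esx1 UMIs, 60.8% of the Cdx2 UMIs and all 9 Hand1 UMIs of the library. They held 9.06% of the Eomes UMIs, 4.07% of the Tfap2a UMIs and 3.12% of the Elf5 UMIs. In cluster 9 the +4OHT shares were 40.8% for Esx1, 36.9% for Cdx2, 33.8% for Ascl2, 29.3% for Tfap2c, 8.28% for Eomes and 2.55% for Hand1, and in cluster 12 they were 47.4%, 43.9%, 35.1%, 36.8%, 10.5% and 5.26%. The fibroblast-like +4OHT cells had Esx1, Cdx2, Ascl2 and Tfap2c in 3.12% each, all in 1 of 32 cells, which held 20 Cdx2 UMIs. The levels in cluster 9 were 134 CPM for Esx1, 99.4 for Ascl2, 85.1 for Cdx2 and 47.7 for Tfap2c. The 28 −4OHT cells of cluster 9 held Cdx2 and Esx1 in 3.57% each, Tfap2c in 10.7% and Ascl2 in none, where a floor of 3 cells would be 10.7% of cells with a UMI (exact upper limit 12.3%). With 1 library per condition, a cluster mostly of the +4OHT library may be a feature of that library.

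Outside these clusters the +4OHT levels were below those of −4OHT for 6 members. Computed without clusters 9 and 12, an alternative chosen after seeing the data, the ratio was 0.114 for Ascl2 (0.0636 to 0.191), 0.597 for Esx1 (0.489 to 0.726), 0.615 for Cdx2 (0.51 to 0.741), 0.00997 for Tfap2c (0.00599 to 0.0156), 0.0935 for Eomes and 0 for Hand1 (up to 0.0806). The −4OHT cells there were mostly epiblast-like and the +4OHT cells almost all endoderm-like. Among endoderm-like cells alone, Eomes had 0.195 times (0.168 to 0.227) and Tfap2c 0.0887 times (0.049 to 0.154) the −4OHT level, while Cdx2 (1.04, 0.725 to 1.51), Esx1 (0.809, 0.58 to 1.15), Ascl2 (0.665, 0.244 to 2.09) and Tfap2a (1.19, 0.771 to 1.89) had intervals that included 1. Different clusters made up the endoderm-like class, chiefly 8, 10 and 1 in −4OHT and 10, 0, 13, 3, 2 and 4 in +4OHT. Of the 407 Eomes UMIs of endoderm-like −4OHT cells, 362 were in cluster 8, which had 2 cells in +4OHT. The same cluster held 47 of the 54 Tfap2c UMIs and all 5 Hand1 UMIs of these −4OHT cells. The part of this cluster in the ratios was not tested. Hand1 had no UMI in 6378 endoderm-like +4OHT cells, where a floor of 3 cells would be 0.047% of cells with a UMI (exact upper limit 0.0578%).

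Co-detection was more frequent in −4OHT cells and more concentrated in +4OHT cells. At least 2 of the 8 members were seen in 886 −4OHT cells (16.0%, 15.1 to 17.0) and in 137 +4OHT cells (2.07%, 1.74 to 2.44). With each cell thinned to 8000 UMIs, which left out 295 and 933 shallower cells, the shares were 5.29% and 1.37%. At least 4 were seen in 24 −4OHT cells (0.434%) and 25 +4OHT cells (0.377%). Of these 24 cells 23 were epiblast-like, and of the 25 cells 17 were in cluster 9, 7 in cluster 12 and 1 was fibroblast-like. Cells with at least 4 members were deep, with a median of 29298 UMIs in −4OHT and 23467 in +4OHT against 15473 and 12123 in cells with none.

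By class, at least 2 members were seen in 21.0% of epiblast-like and 4.43% of endoderm-like −4OHT cells, in 0.533% of endoderm-like +4OHT cells, in 43.3% of +4OHT cells of cluster 9 and in 57.9% of those of cluster 12. Thinned, these shares were 7.01%, 0.615%, 0.201%, 36.0% and 28.1%. The set Cdx2, Tfap2c, Esx1 and Ascl2 made up most of the overlap in +4OHT: at least 2 of these 4 were in 63 of the 157 cells of cluster 9 (40.1%) and in 7 of 6378 endoderm-like cells (0.110%). All 4 were in 22 +4OHT cells, 16 of them in cluster 9 and 5 in cluster 12, and in 5 −4OHT cells. This set was put together after its values were seen. The 28 −4OHT cells of cluster 9 had no cell with at least 2 members.

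**Figure D4:**
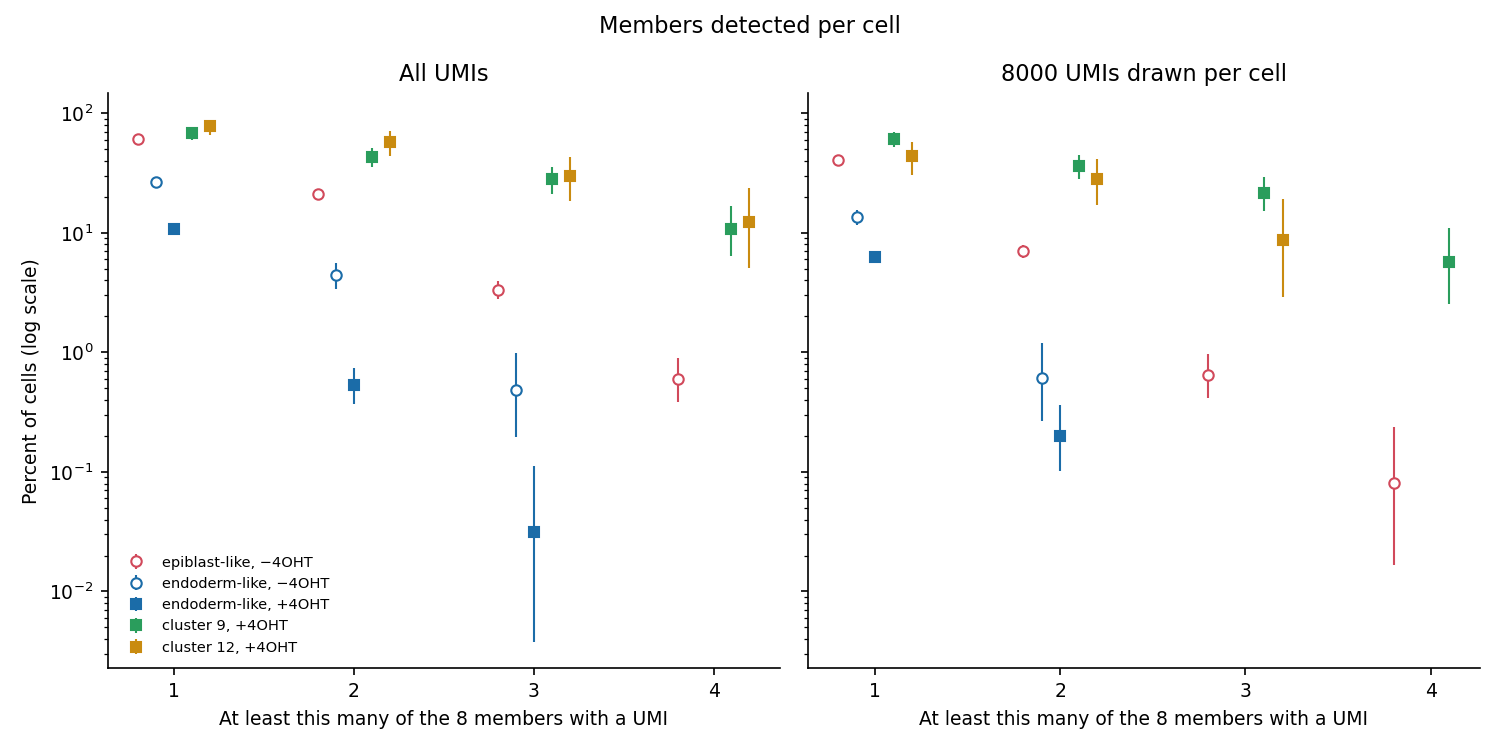
Percent of cells (log axis) with at least 1, 2, 3 or 4 of the 8 members, from all UMIs (left) and from 8000 UMIs drawn per cell (right), by class or cluster, with exact 95% intervals. Circles are −4OHT and squares +4OHT cells, and shares of 0 are not drawn. With 8000 UMIs drawn, at least 2 members were in 36.0% of cluster 9 and 28.1% of cluster 12 of +4OHT, against 7.01% of epiblast-like −4OHT cells and 0.201% of endoderm-like +4OHT cells.

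Pair by pair, the −4OHT cells joined Cdx2 to Eomes and Tfap2c. Of the 241 −4OHT cells with Cdx2, 53.9% (47.4 to 60.4) also had Eomes and 45.6% (39.2 to 52.2) Tfap2c, against 31.5% and 21.5% of cells without Cdx2. Ascl2 was in 9.54% of the Cdx2 cells against 2.42%. Eomes and Tfap2c met in 532 cells, 29.6% of Eomes cells against 19.1% of the rest. The differences were also present within the epiblast-like class, where 58.4% against 37.5% of cells had Eomes and 52.3% against 29.3% had Tfap2c by Cdx2. In thinned cells these shares over all classes were 35.6% against 18.5% and 27.7% against 12.9%. The epiblast-like class pools clusters 5, 6 and 7, where Cdx2 was in 0.865%, 7.56% and 7.82% of cells and Eomes in 14.9%, 58.2% and 37.9%. Pairs were not counted within each of these clusters, so that the part of the cluster in the differences was not tested. Hand1 was the exception: of 49 cells with it, 16.3% (7.32 to 29.7) had Eomes against 32.6% of cells without it. Of these 49 cells 30 were in cluster 5, where Eomes was in 14.9% of cells. The part of the cluster in this difference was not tested either.

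In +4OHT cells Eomes dropped out of these pairs and Esx1 and Ascl2 came in. Of the 84 cells with Ascl2, 60.7% (49.5 to 71.2) had Esx1, 57.1% (45.9 to 67.9) had Cdx2 and 41.7% (31.0 to 52.9) had Tfap2c, against 2.73%, 2.72% and 0.779% of cells without it. Of the 86 cells with Tfap2c, 52.3% had Esx1, 45.3% Cdx2 and 40.7% Ascl2. Eomes was in 5.31% of Cdx2 cells against 4.47% of the rest, and Tfap2a cells had Cdx2 in 1.71% against 3.44%, with intervals that overlapped. Thinned to 8000 UMIs, Ascl2 cells still had Esx1 in 66.0% against 1.86% and Cdx2 in 50.9% against 1.74%. Most of these pairs fell in cluster 9, and the excess was present within it as well: there Ascl2 cells had Cdx2 in 62.3% against 24.0%, Esx1 in 66.0% against 27.9% and Tfap2c in 50.9% against 18.3%. The shares within cluster 9 were not thinned, so that the part of depth in them was not tested. In endoderm-like +4OHT cells, 1 cell had Cdx2 with Ascl2, 1 had Cdx2 with Tfap2c and 6 had Cdx2 with Esx1, of 141 with Cdx2. In cluster 12 doublets were not separated in the +4OHT library.

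**Figure D5:**
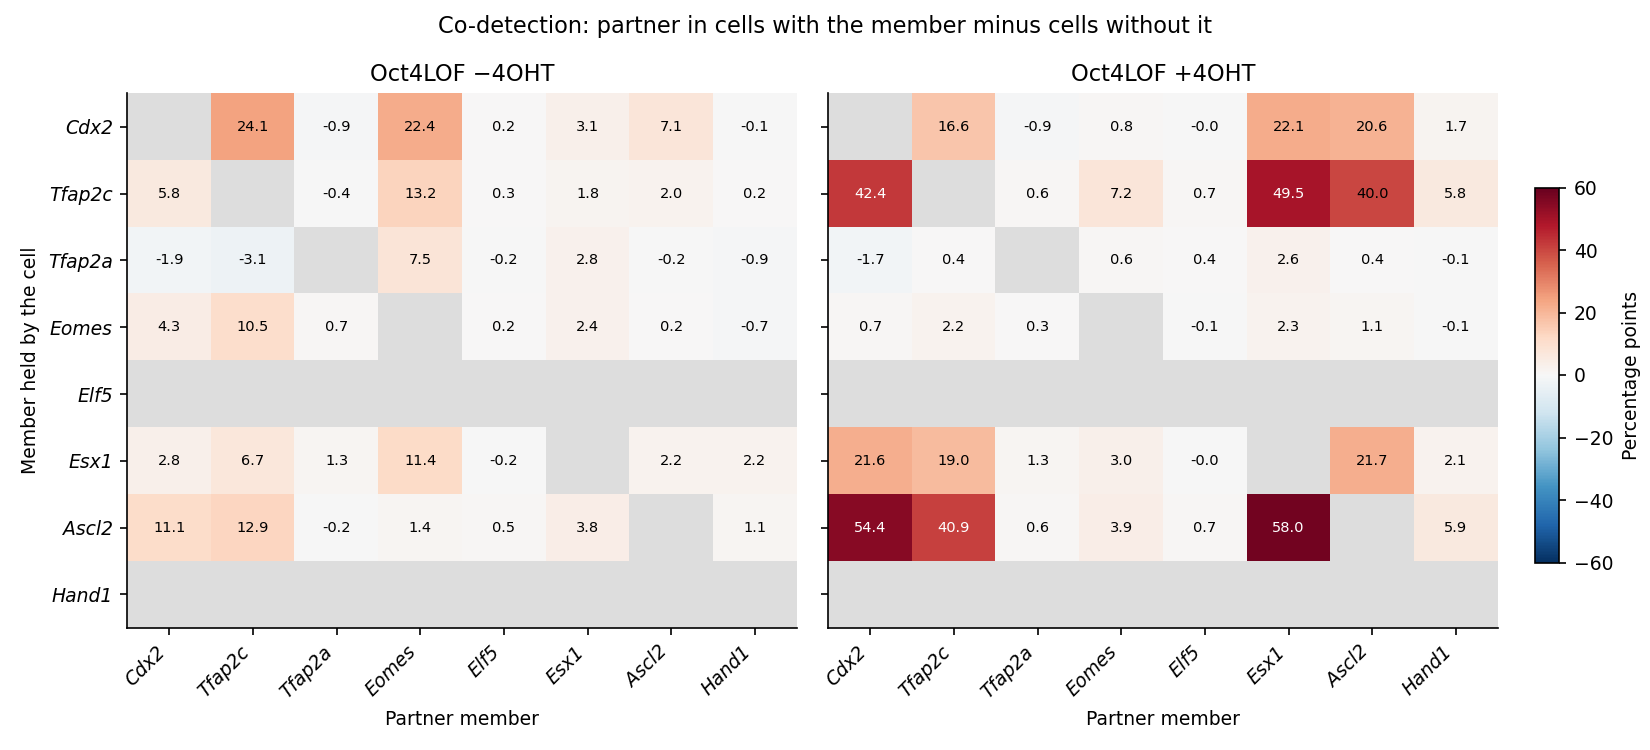
Share of cells with the partner (columns) among cells with the member (rows) minus the share among cells without it, in percentage points, in −4OHT (left) and +4OHT (right) cells. Rows are grey for members with fewer than 50 positive cells. In −4OHT the largest differences join Cdx2 to Tfap2c (45.6% against 21.5%) and Eomes (53.9% against 31.5%), and in +4OHT they join Ascl2 to Esx1 (60.7% against 2.73%) and Cdx2 (57.1% against 2.72%).

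The cells that held the members differed in their other markers too. Among +4OHT cells with Ascl2, the trophoblast keratin Krt7 was in 35.7% against 2.18% of cells without it and Gata3, a TE inducer, in 20.2% against 1.34%, while the endoderm factor Gata6 was in 60.7% against 90.9%. Pou5f1 was in 25% of Ascl2 cells and 36.0% of Tfap2c cells against 2.92% and 2.77%. The mean share over the 10 trophoblast marker genes that are no members was 9.73% in cluster 9 and 12.3% in cluster 12. These are shares of cells with a UMI from both libraries together, without thinning. The other clusters had 3.65% to 9.38%, and cluster 9 stood little above endoderm-like clusters 14 (9.38%) and 4 (9.24%). Median depths were 14052 and 27058 UMIs in clusters 9 and 12 and 9118 and 12198 in clusters 14 and 4. Cluster 9 as a whole had Cldn4 in 79.6%, Krt7 in 21.7% and Gata3 in 14.0% of its +4OHT cells, against 2.54%, 1.84% and 1.2% of cells outside the unnamed clusters, but it also had Sox2 in 49.0% and Nanog in 20.4%, against 0.390% and 0.125%, and Krt8 in 52.2% against 93.9%. Of the whole trophoblast list, 7 of 10 genes had a higher share in cluster 9 with intervals apart and 1, Plet1 (15.9% against 24.6%), a lower one, and of the TE epithelium list 4 of 11 were higher and 6 lower, Krt18 (49.0% against 93.6%) and Krt19 (32.5% against 69.6%) among them. Within it, with no thinning, some markers differed with the members: Ascl2 cells had Krt7 in 37.7% against 13.5% and Krt18 in 71.7% against 37.5%. Sox2 was in 34.0% of them against 56.7%, with intervals that overlapped. Pou5f1 (32.1% against 24.0%), Nanog (24.5% against 18.3%) and Gata6 (39.6% against 26.0%) went the other way, also with intervals that overlapped. The 13 Eomes cells had Nanog in 61.5% against 16.7% and Pou5f1 in 61.5% against 23.6%. Of these genes Sox2, Nanog and Cldn4 were chosen after their values were seen. Feeder markers were also more frequent in +4OHT cells with Ascl2, where 16.7% had at least 1 UMI of the 8 feeder genes against 3.22% of cells without it. At least 1 of the 8 mesoderm genes was seen in 11.9% of +4OHT cells with Ascl2 against 2.35%, in 8.85% against 2.25% by Cdx2, in 12.8% against 2.34% by Tfap2c and in 8.26% against 2.27% by Esx1. The part of such cells in the co-detection was not tested.

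The genes most enriched in cells with a member, by the ratio of CPM between cells with and without it, differed between the libraries. In −4OHT they were Id2 (4.08), Sp5 (3.87), Morc4 (3.69), H19 (3.68) and Hoxa9 (3.68) for Cdx2, and Dppa3 (3.47) and Nanos3 (3.17), known from germ cells, came first for Tfap2c. For Eomes they included Saa3 (2.68) and Emp1 (2.29). Cdx2 itself was the second gene for Ascl2 (6.04), after Oas3 (6.59). In +4OHT the lists named other members: Ascl2 (70.6), Tfap2c (27.5), Cldn3 (26.4) and Esx1 (24.1) for Cdx2, Ascl2 (85.0) and Phlda2 (62.0) for Tfap2c, and Ascl2 (73.8), Wfdc2 (49.4) and Phlda2 (40) for Esx1. Those of Ascl2 included Fam78b (405), Scube1 (191), Pdzrn4 (104) and Phlda2 (102), with Fam78b at 0.0325 CPM in cells without Ascl2, where the ratio rests on very few UMIs. Eomes and Tfap2a had no such partners, with a highest ratio of 3.60 for Nrp2 and 2.86 for Snap91.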

How the data were processed

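The members and gene lists were chosen with earlier results of these data known. Bulk values were unnormalised read counts by gene symbol, as the authors deposited them; which aligner, counter, build and strand setting made them was not given in the sources used here. Besides 48952 genes there were 35 blank lines without counts. Single-cell values were UMI counts for each gene and barcode, also deposited by the authors and made with Cell Ranger on mm10 per the submitters' processing notes. Groups came from the labels. Bulk counts were analysed in edgeR 4.0.16 (R 4.3.3) with filterByExpr defaults, TMM scaling and the quasi-likelihood test on all 9 libraries, Benjamini-Hochberg adjusted over 14185 genes; SE is the absolute log2 fold change over the square root of F. DESeq2 1.42.0 was an alternative, and the code was tested on simulated data. Libraries of a group differed beyond sampling noise (chi-square of 16.7 to 36.6 per degree of freedom). Deviations of same-numbered DP and Pdgfra+ libraries correlated at 0.293, 0.516 and 0.336 across genes, so that these numbers pair them, as read from the counts; no other comparison was paired. Positions are from GENCODE on GRCm38.

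Barcodes with at least 1500 genes and at most 15% mitochondrial UMIs were clustered in scanpy 1.11.5 (Python 3.11.15) on 2000 variable genes without the members (20 components, 15 neighbours, Leiden resolution 1.0). Cells of a cluster were endoderm-like or epiblast-like where the share of cells with a UMI, averaged over the markers, was at least 50% for 1 list and under 50% for the other, and fibroblast-like or two-cell-like where 3 of the 10 leading genes were markers; this rule was set after seeing the data. Doublets called by Scrublet were kept. Intervals were exact (scipy 1.17.1). All members are named; from other lists, up to 4 of the largest changes past the threshold, any gene at 20 CPM or more, and the genes most like a member (up to 2 in bulk, up to 5 in single cells). Some genes that this rule would name are not reported here.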

Additional observations from a re-analysis of the deposited data

How the results depend on the processing

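Between DP and Pdgfra+ the count of members past the threshold was 1 and became 3 with DESeq2 and with no filter on low counts (Tfap2c, Esx1 and Hand1 in both) and 2 with only the 6 libraries compared. Adding the replicate block to that fit, which pairs DP with Pdgfra+, gave 2 (Tfap2c and Esx1). It ran from 0 to 2 when single libraries were left out, where the 1 remaining without Pdgfra+ replicate 1 was Eomes. The replicate block ended no call of a member in the other comparisons. Between Oct4+ and Pdgfra+ the 5 members past the threshold became 6 with DESeq2 (with Hand1) and 7 with no filter (with Hand1 and Elf5). A filter of at least 5 CPM in 3 libraries, which left 3 members, gave 1 between DP and Oct4+ and 2 between Oct4+ and Pdgfra+. The log2 fold change of Esx1 for DP over Oct4+ ran from −0.45 to 0.22 and that of Cdx2 for DP over Pdgfra+ from −0.40 to 0.23 over the left-out libraries, turning sign without Oct4+ replicate 3 and Pdgfra+ replicate 3. Over all genes, the 552 calls between DP and Pdgfra+ became 914 with DESeq2, 1023 with no filter and 57 (without Pdgfra+ replicate 3) to 728 without single libraries. In the ratio of +4OHT over −4OHT, endoderm-like cells alone gave 1.04 for Cdx2, 0.195 for Eomes, 0.665 for Ascl2, 0.809 for Esx1 and 0 for Hand1; leaving out clusters 9 and 12 gave 0.615 for Cdx2, 0.00997 for Tfap2c, 0.114 for Ascl2, 0.597 for Esx1 and 0 for Hand1. At least 2 members were in 12.9% of all −4OHT barcodes, 5.29% after thinning and 4.43% of endoderm-like cells, and in 1.37% and 0.533% of +4OHT cells after thinning and in the endoderm-like class. Leaving out clusters 9 and 12, counting all barcodes and counting members in endoderm-like cells alone were chosen after seeing the data. The causes were not tested. Leaving out called doublets could not change the +4OHT values, since none was called there. Depth limits Elf5, Hand1 and the DP and Pdgfra+ levels of Ascl2 and Tfap2c to a few reads.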
